A study of Mus musculus with 10 samples.

Results

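The genes described here build and switch on the axoneme, the microtubule core of motile cilia. They number 42, of 53379 genes in the count tables, and were chosen from axoneme results of the comparisons among the tagged groups (appetitive with neutral, aversive with neutral, and appetitive with aversive) in these same libraries. In the study, AAV9 vectors carrying c-Fos-tTA and TRE-ChR2-EYFP were injected in mice so that, off doxycycline for 48 h, cells active during an experience took up the EYFP tag. Tagged material of the hippocampal regions was sorted and sequenced after an aversive, an appetitive or a neutral experience. Libraries of mock mice served as the untagged control by the paper, and the labels place these mice in the home cage. The paper's Results speak of nuclei and its Methods of cells.

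By the labels mice of all 4 groups were 5-week-old males carrying the ChR2-YFP transgene. Aversive mice (libraries 1 and 3) received 4 shocks of 1.5 mA for 2 s each. Appetitive mice (libraries 1 and 2) were exposed to a female for 1 h by the labels and 2 h by the Methods. Neutral mice (libraries 1 to 3) had a neutral experience, and mock mice (libraries 1 to 3) stayed in the home cage. By the Methods tissue of 8 mice was pooled per experimental condition and mock had 2 mice, so that its 3 libraries cannot come from 3 mice. The paper states that its RNA-seq was replicated and batch effects controlled, but neither of what the replicates consist nor whether the libraries of a condition split 1 pool, so p-values measure the spread between these libraries, which may be technical.

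A motile axoneme has outer doublet microtubules around a central pair. Dynein arms on the doublets slide them against each other, while radial spokes, the nexin links and the central pair apparatus set the beat. In the brain such cilia are found on ependymal cells of the ventricle wall, and the factors Foxj1, Rfx2 and Rfx3 drive their genes. Choroid plexus epithelium carries cilia too.

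All 42 members were matched to the annotation and all 42 passed the low-count filter, which kept 19754 genes. Members with at least 1 count numbered 42, 42 and 42 in mock 1 to 3, 23 and 42 in aversive 1 and 3, 10 and 17 in appetitive 1 and 2, and 40, 39 and 42 in neutral 1 to 3. With at least 10 counts they numbered 34, 34 and 42 in mock 1 to 3, 19 and 39 in aversive 1 and 3, 3 and 9 in appetitive 1 and 2, and 40, 38 and 42 in neutral 1 to 3. Appetitive 1 and 2 thus held 23.8% and 40.5% of the members, beside 50.4% and 49.8% of protein-coding genes. Aversive 1 lacked 19 members that aversive 3 held, and its 54.8% of the members stood beside 58.9% of protein-coding genes, against 67.7% in aversive 3. After thinning every library to the smallest total, the members with at least 1 count numbered 42, 42 and 42 in mock 1 to 3, 23 and 41 in aversive 1 and 3, 6 and 17 in appetitive 1 and 2, and 40, 39 and 42 in neutral 1 to 3.

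Summed over the 42 members, CPM (counts scaled to the library total times its TMM factor) came to 141, 204 and 536 in mock 1 to 3, 335 and 927 in aversive 1 and 3, 80.3 and 84.7 in appetitive 1 and 2, and 3656, 995 and 2583 in neutral 1 to 3. The neutral libraries were the highest and the appetitive ones the lowest, with no overlap between neutral and any other group. Rfx3 alone held 68.2 CPM of the sum in appetitive 1, and 0.0524 CPM in appetitive 2. Within mock, library 3 held the highest value for 38 of 42 members (90.5%), against 46.96% of all tested genes. Within aversive, library 3 exceeded library 1 for 34 of 42 (80.95%), against 53.1%. Neutral 2 was the lowest of the neutral libraries for 33 of 42 (78.6%), against 34.1%. Fewer ciliated cells and less of these RNAs per cell cannot be told apart in such pools. Neutral libraries are labelled total RNA, were made by the labels with another kit version and read at 100 bases on another sequencer, while the others are labelled polyA RNA and read at 40 bases. No other group shares that preparation, so the experience of the neutral group cannot be told apart from it.

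**Figure D1:**
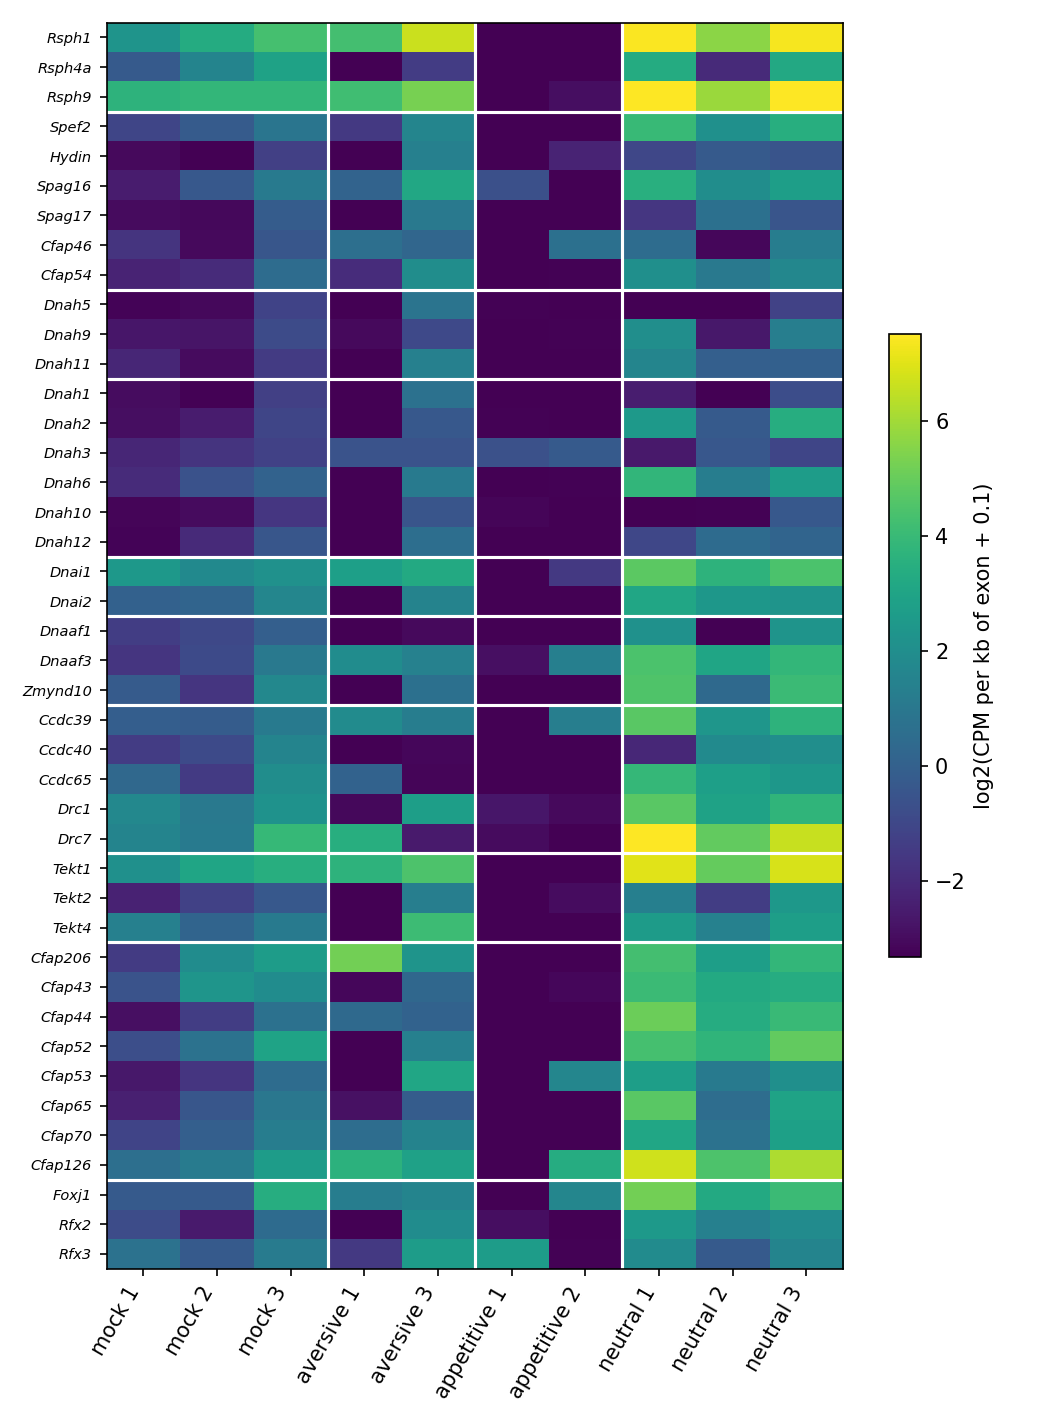
Level of each of the 42 members in each library, as log2 of CPM per kb of exon plus 0.1. White lines separate groups of libraries and structural groups of members.

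Labels were checked against markers of the cells in the tissue. Beside the marker counts that follow, the shares of all tested genes at an unadjusted p under 0.05 were 3.721% higher and 9.735% lower in neutral against mock, 1.012% and 8.95% in aversive, and 2.794% and 20.98% in appetitive. DESeq2 called 1.729% higher and 5.413% lower, 0.518% and 7.307%, and 3.193% and 23.13%, in this order, and edgeR 0.005062% and 0.081%, 0% and 0%, and 0.02025% and 1.959%. The 13 neuron markers summed to CPM of 480.4, 290.0 and 324 in mock 1 to 3, 858 and 749 in aversive 1 and 3, 1307 and 209.6 in appetitive 1 and 2, and 89.8, 137 and 96.04 in neutral 1 to 3, so every neutral library lay below and both aversive libraries above every mock library. Their most abundant gene by mean CPM over all libraries was Snap25 (synaptic vesicle fusion), with CPM values of 136, 117 and 44.2 in mock 1 to 3, 422 and 123 in aversive 1 and 3, 577 and 154 in appetitive 1 and 2, and 24.4, 15.1 and 21.2 in neutral 1 to 3. At 0 were Gad2 (GABA synthesis) in aversive 1, Neurod6, Gad1 and Gad2 in appetitive 1, Syt1, Neurod6, Gad1 and Gad2 in appetitive 2, Stmn2, Gad1 and Gad2 in neutral 1, Gad2 in neutral 2 and Gad1 in neutral 3. None of the 13 was called in a mock contrast by the edgeR quasi-likelihood test. At an unadjusted p under 0.05 were 2 lower in neutral, 0 in aversive, and 4 lower and 2 higher in appetitive, and DESeq2 called 1, 1 and 3 in the 3 contrasts, all lower, of 12 given an adjusted p.

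Ependymal markers, 12 of 12 matched and 1 of them, Foxj1, also a member, summed to CPM of 42.1, 165 and 240.4 in mock 1 to 3, 169 and 599 in aversive 1 and 3, 70.4 and 179.7 in appetitive 1 and 2, and 698, 585 and 744 in neutral 1 to 3. All 3 neutral sums lay above every mock sum, and the appetitive sums lay within the mock range. In appetitive 1, however, 9 of 12 markers were at 0 (Foxj1, Ccdc153, Tmem212, Pifo, Dynlrb2, 1110017D15Rik, Fam183b, Mia and Mlf1) and Fam216b alone held 68.5 CPM of the sum. In appetitive 2, 5 were at 0 (Pifo, Fam183b, Fam216b, Mia and Cd24a), and in aversive 1 Pifo was. By fit 9 of 12 ependymal markers were lower in appetitive than in mock, against 63.99% of all tested genes, and for 5 (41.7%) both appetitive libraries lay below every mock library, against 38.92%. Dynlrb2 (dynein light chain) was the most abundant by mean CPM over all libraries, with CPM values of 2.87, 16.04 and 18.9 in mock 1 to 3, 9.31 and 52.3 in aversive 1 and 3, 0 and 33.99 in appetitive 1 and 2, and 150.3, 55.8 and 119.7 in neutral 1 to 3. Tmem212, a marker of ependymal cells, had CPM values of 1.67, 26.9 and 32.6 in mock 1 to 3, 30.1 and 118 in aversive 1 and 3, 0 and 39.5 in appetitive 1 and 2, and 11.96, 71.1 and 41.96 in neutral 1 to 3, and here neutral 1 was the lowest neutral library, unlike for most members. For 6 of the 12 markers neutral 2 was the lowest neutral library, as for most members. Fam216b and Tmem212 were singled out after their values were seen. No ependymal marker was called in any mock contrast by edgeR, the smallest adjusted p being 0.0506 (1110017D15Rik in appetitive, lower). At an unadjusted p under 0.05 were 2 of 12 higher in neutral, 1 higher in aversive and 4 lower in appetitive, and DESeq2 called 2 higher, 0 and 4 lower.

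Choroid plexus markers, 15 of 15 matched, summed to CPM of 2713, 2679.5 and 7511 in mock 1 to 3, 21179.9 and 9927 in aversive 1 and 3, 2028 and 8264 in appetitive 1 and 2, and 153264, 32174 and 117209.8 in neutral 1 to 3. Ttr (a thyroid hormone carrier), the most abundant on average, had CPM values of 1066, 1072 and 3156 in mock 1 to 3, 13199.5 and 6793 in aversive 1 and 3, 848 and 2897 in appetitive 1 and 2, and 128856, 20730.2 and 93601 in neutral 1 to 3. Enpp2 (a lysophospholipase), singled out after its values were seen, had CPM values of 1493, 1487 and 3718 in mock 1 to 3, 6721 and 2545 in aversive 1 and 3, 1086 and 5131 in appetitive 1 and 2, and 13719.8, 9133 and 14759 in neutral 1 to 3, so that Ttr and Enpp2 made up most of the sum in every library. For the sum, every neutral and both aversive libraries lay above every mock library, and neutral 2 was the lowest neutral library for all 15 markers, beside 6 of 12 ependymal markers, 33 of 42 members and 34.1% of all tested genes. In neutral against mock edgeR called none of 15, with 12 higher at an unadjusted p under 0.05, and DESeq2 called 10 higher. In aversive edgeR called none, with 1 higher and 1 lower at an unadjusted p under 0.05 and 1 called lower by DESeq2. In appetitive 10 of 15 were negative by fit, against 63.99% of all tested genes, 7 were lower at an unadjusted p under 0.05, 5 were called lower by DESeq2 (33.3%, against 23.13%) and 1 by edgeR (6.67%, against 1.959%). At 0 were 4 of 15 in appetitive 1 (Prlr, Otx2, Slc4a5 and Calml4) and 4 in appetitive 2 (Clic6, Kcne2, Calml4 and Lmx1a), Otx2 was in aversive 1, and in the 2 appetitive libraries 11 and 6 had at most 3 counts. The choroid marker Calml4 (a calmodulin-like protein) fell in appetitive, with CPM values of 11.4, 9.64 and 29.8 in mock 1 to 3, 43.5 and 25.6 in aversive 1 and 3, 0 and 0 in appetitive 1 and 2, and 581, 98.6 and 459 in neutral 1 to 3. Both appetitive libraries were at 0 and below every mock library, at least 72.3-fold below the mock mean (edgeR quasi-likelihood test, Benjamini-Hochberg adjusted p = 0.0317). The Calml4 call ended without mock replicate 1 (0.0785), mock replicate 2 (0.0802), mock replicate 3 (0.0937), neutral replicate 1 (0.0593), neutral replicate 2 (0.0570) or neutral replicate 3 (0.0908), adjusted p in parentheses. The part of ependymal and choroid plexus cells in the member values was not tested.

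**Figure D2:**
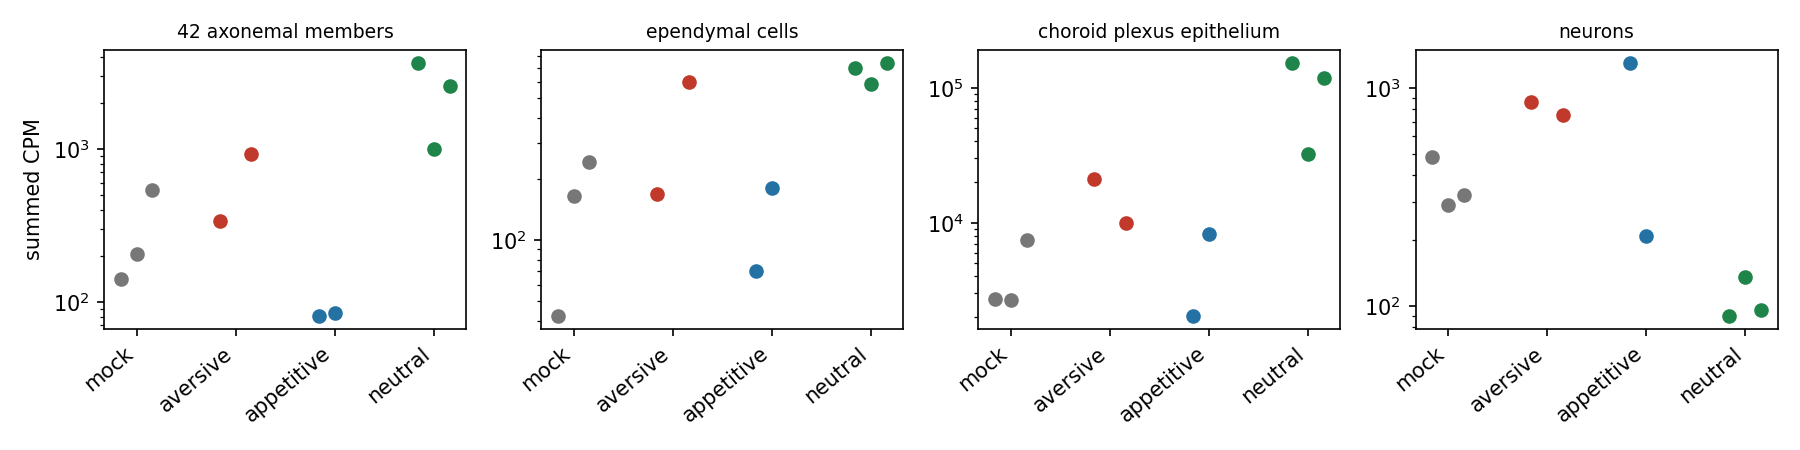
Summed CPM per library of the 42 members and of markers of 3 cell types, 1 point per library, on log axes. Foxj1 counts among both the members and the ependymal markers.

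Scaling moved the all-gene median. By TMM it was 0.08 in neutral against mock, by library size alone 0.19 and by DESeq2 size factors 0.06. For aversive against mock these were -0.13, -0.28 and -0.00. For appetitive against mock they were -1.45, -1.93 and -1.17. Medians of members, structural groups and lists are therefore also given as relative medians, the median minus that of all tested genes. A relative median with bounds sets genes at 0 in a whole group at their bound, in the list and in all genes alike. That bound, given as at least a certain fold, sets the mean of the other group against the highest floor of the group at 0. Single libraries of the other group can lie closer to that floor. A fold with a counting interval instead divides pooled counts over pooled library sizes, so the deepest libraries weigh most. Floors and counting intervals cover counting error alone, to which PCR copies in these amplified libraries add. Calls by edgeR, and members not called, refer to the fit of all 4 groups and all libraries unless another fit is named. The 3 mock contrasts share the mock libraries with each other and the tagged libraries with the comparisons from which the members were chosen, so their counts are no independent support for the choice.

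In neutral against mock, 41 of 42 members had a positive fitted change, Dnah5 being the exception, against 51.85% of all tested genes, with a median log2 fold change of 2.54, which is 2.47 above the all-gene median. All 3 neutral libraries lay above every mock library for 25 of 42 (59.5%), against 16.02% of all tested genes. The edgeR quasi-likelihood test with Benjamini-Hochberg adjustment called 0 of 42, and 0.005062% of all genes higher. At an unadjusted p under 0.05 it had 11 members higher (26.2%), against 3.721% of all genes. The 11 became 4 and 4 without mock replicate 1 and 2 (1.153% and 1.413% of all genes) and 5 without neutral replicate 1 (1.983%), and was 8 to 13 in the other fits with 1 library left out. DESeq2 called 6 of the 40 members it gave an adjusted p, all higher (Cfap44, Dnaaf3, Rsph1, Rsph9, Spef2, Tekt1), against 1.729% of all genes.

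In aversive against mock, 31 of 42 members had a positive and 11 a negative fitted change, against 47% of all genes positive, median 1.13, which is 1.26 above the all-gene median. Both aversive libraries lay above every mock library for 8 members (19.05%), against 11.36% of all genes, and below for 3 (7.14%), against 24.72%. The edgeR quasi-likelihood test called 0 of 42, and 0% of all genes in either direction. At an unadjusted p under 0.05 were 1 member higher, Rsph1, and 1 lower, Ccdc40 (2.38% each), against 1.012% of all genes higher and 8.95% lower. DESeq2 called 0 of 40 members higher and 1 lower, Ccdc40, against 0.518% of all genes higher and 7.307% lower. Without aversive replicate 3 the median became -5.93 beside -1.86 for all genes, and 13 members were lower at an unadjusted p under 0.05, against 10.22%.

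In appetitive against mock, 36 of 42 members had a negative fitted change, against 63.99% of all genes. The median was -8.77 beside -1.45 for all genes, and with genes at 0 in a whole group set at their bound it was -4.50 beside -0.47, a relative median of -4.03. Members at 0 in both appetitive libraries numbered 19. Both appetitive libraries lay below every mock library for 32 of 42 (76.2%), against 38.92% of all genes. Among these Spag17, Dnah1, Dnah5 and Dnah12 had at most 3 counts, the floor, in a mock library. By the edgeR quasi-likelihood test with Benjamini-Hochberg adjustment 4 members fell (9.52%), Rsph1, Rsph9, Spef2 and Tekt1, against 1.959% of all genes. At an unadjusted p under 0.05 were 26 lower (61.9%), against 20.98%. DESeq2 called 26 lower, against 23.13%. The count of 4 became 0 without mock replicate 1, 2 or 3 and without neutral replicate 1, 2 or 3, but 18 without aversive replicate 1 and 16 without aversive replicate 3. All genes moved alike, since none was called in the first 6 of these fits, and 7.495% and 7.831% were called lower in the last 2. The replicate block ended the 4 calls, as it did every call of a gene in this contrast, and DESeq2 size factors in edgeR ended that of Spef2.

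**Figure D3:**
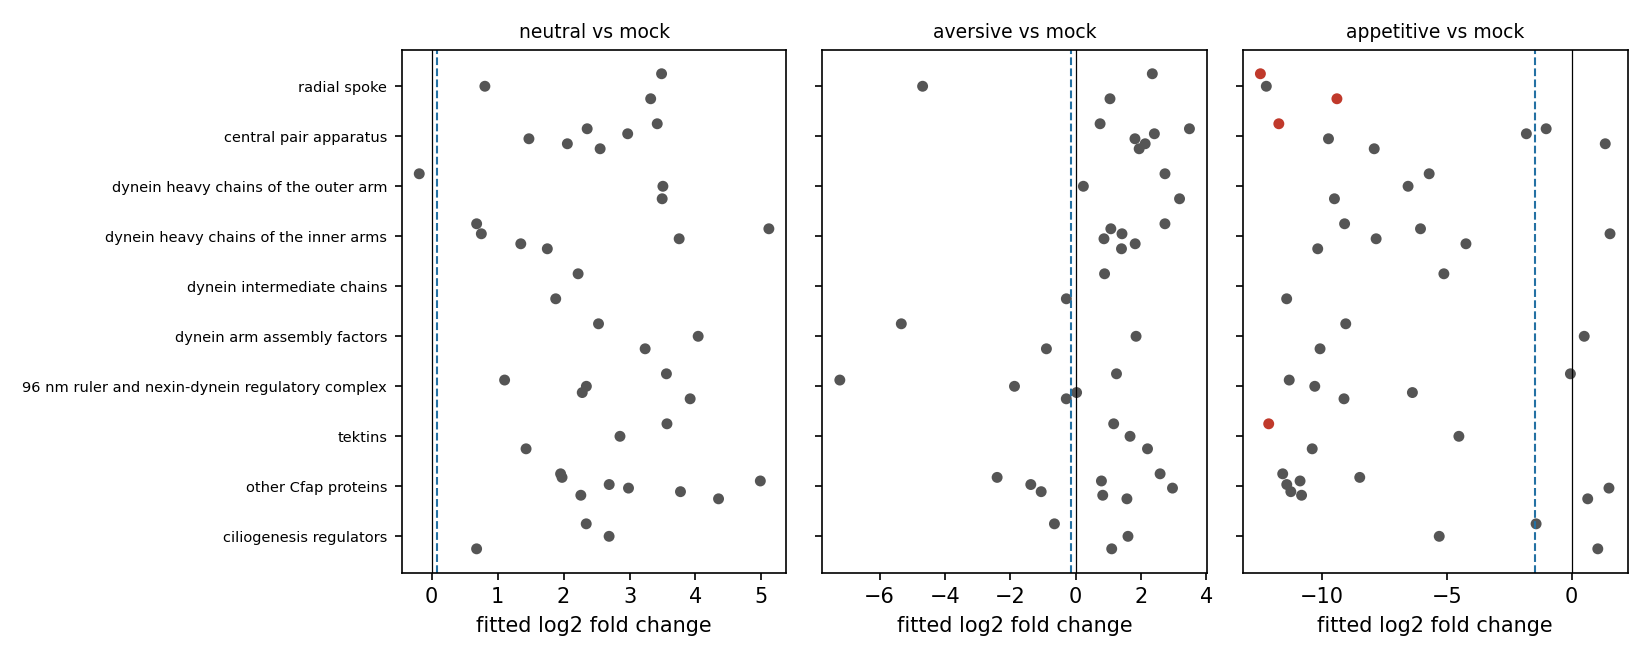
Fitted log2 fold change of each member against mock, by structural group. Red points were called at an adjusted p under 0.05 (edgeR), and the dashed line is the all-gene median.

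Radial spokes were represented by 3 members. All 3 had a positive fitted change in neutral against mock (relative median 3.24) and all 3 a negative one in appetitive (relative median -5.61 with bounds), where 2 fell. Rsph9 (a spoke head protein, ENSMUSG00000023966, chr17:46122035-46144216) had CPM values of 20.6, 23.02 and 22.8 in mock 1 to 3, 29.02 and 62.5 in aversive 1 and 3, 0 and 0.0524 in appetitive 1 and 2, and 284, 93.3 and 286 in neutral 1 to 3. For Rsph9, all 3 neutral and both aversive libraries lay above every mock library, and both appetitive libraries lay below every mock library. In neutral, Rsph9 had a log2 fold change of 3.32 ± 0.79 against mock (edgeR quasi-likelihood test, Benjamini-Hochberg adjusted p = 0.174). Mock Rsph9 exceeded appetitive 713-fold, with a counting interval of 128 to 28167 (edgeR quasi-likelihood test, Benjamini-Hochberg adjusted p = 0.0296). The Rsph9 call ended without mock replicate 1 (0.0785), mock replicate 2 (0.0802), mock replicate 3 (0.0937), neutral replicate 1 (0.0593), neutral replicate 2 (0.0570) or neutral replicate 3 (0.0908), adjusted p in parentheses. Appetitive 2 held 1 of its counts and appetitive 1 none.

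Rsph1 (a spoke head protein and the second member by level per kb, ENSMUSG00000024033, chr17:31255019-31277383) had CPM values of 6.45, 13.7 and 27.3 in mock 1 to 3, 26.1 and 135 in aversive 1 and 3, 0 and 0 in appetitive 1 and 2, and 239, 66.7 and 227 in neutral 1 to 3. For Rsph1, all 3 neutral libraries lay above every mock library, both appetitive libraries lay below every mock library, and the aversive libraries overlapped mock. In neutral, Rsph1 had a log2 fold change of 3.49 ± 0.98 against mock (edgeR quasi-likelihood test, Benjamini-Hochberg adjusted p = 0.174). In appetitive, Rsph1 lay at least 67.5-fold below the mock mean (edgeR quasi-likelihood test, Benjamini-Hochberg adjusted p = 0.0317). The Rsph1 call ended without mock replicate 1 (0.0789), mock replicate 2 (0.0802), mock replicate 3 (0.0937), neutral replicate 1 (0.0594), neutral replicate 2 (0.0570) or neutral replicate 3 (0.0908), adjusted p in parentheses. Rsph4a (a spoke head scaffold, ENSMUSG00000039552, chr10:33905111-33916021) had CPM values of 2.67, 10.4 and 27.2 in mock 1 to 3, 0 and 1.02 in aversive 1 and 3, 0 and 0 in appetitive 1 and 2, and 36.4, 0.520 and 33.6 in neutral 1 to 3. For Rsph4a, both aversive and both appetitive libraries lay below every mock library, and the neutral libraries overlapped mock. In aversive, Rsph4a had a log2 fold change of -4.68 ± 2.42 against mock (edgeR quasi-likelihood test, Benjamini-Hochberg adjusted p = 0.523). In appetitive, Rsph4a lay at least 57.3-fold below the mock mean (edgeR quasi-likelihood test, Benjamini-Hochberg adjusted p = 0.113).

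Of the central pair apparatus, 6 members were tested. All 6 had a positive fitted change in neutral against mock (relative median 2.38), and 5 of 6 a negative one in appetitive (relative median -2.11 with bounds). Hydin, Spag17, Cfap46 and Cfap54 were not called by edgeR in a mock contrast. Spef2 (a projection protein of the central pair, ENSMUSG00000072663, chr15:9578193-9748868) had CPM values of 3.70, 7.60 and 17.2 in mock 1 to 3, 2.50 and 29.3 in aversive 1 and 3, 0 and 0 in appetitive 1 and 2, and 155, 42.2 and 107 in neutral 1 to 3. For Spef2, all 3 neutral libraries lay above every mock library, both appetitive libraries lay below every mock library, and the aversive libraries overlapped mock. In neutral, Spef2 had a log2 fold change of 3.42 ± 1.19 against mock (edgeR quasi-likelihood test, Benjamini-Hochberg adjusted p = 0.228). In appetitive, Spef2 lay at least 40.4-fold below the mock mean (edgeR quasi-likelihood test, Benjamini-Hochberg adjusted p = 0.0435). The Spef2 call ended without mock replicate 1 (0.0910), mock replicate 2 (0.102), mock replicate 3 (0.119), appetitive replicate 1 (0.0731), appetitive replicate 2 (0.0587), neutral replicate 1 (0.0799), neutral replicate 2 (0.0737) or neutral replicate 3 (0.108), adjusted p in parentheses. Spag16 (a WD-repeat protein of the central pair, highest of its group by level per kb, ENSMUSG00000053153, chr1:69826970-70725132) had CPM values of 0.518, 4.69 and 13.6 in mock 1 to 3, 6.66 and 60.1 in aversive 1 and 3, 3.60 and 0 in appetitive 1 and 2, and 76.8, 26.4 and 44.98 in neutral 1 to 3. For Spag16, all 3 neutral libraries lay above every mock library, and the aversive and appetitive libraries overlapped mock. In neutral, Spag16 had a log2 fold change of 2.97 ± 1.70 against mock (edgeR quasi-likelihood test, Benjamini-Hochberg adjusted p = 0.524).

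Outer arm heavy chains, 3 members, gave a positive fitted change in neutral for Dnah9 and Dnah11 and 3.42 as the relative median, with Dnah5 at a log2 fold change of -0.19. All 3 were negative in appetitive (relative median -5.24 with bounds), none called. Dnah9 (a motor chain of the outer arm, with exons overlapped by a gene on the other strand, ENSMUSG00000056752, chr11:65831282-66168551) had CPM values of 0.916, 0.833 and 7.20 in mock 1 to 3, 0.350 and 6.67 in aversive 1 and 3, 0 and 0.0524 in appetitive 1 and 2, and 62.9, 1.00 and 38.2 in neutral 1 to 3. For Dnah9, both appetitive libraries lay below every mock library, and the neutral and aversive libraries overlapped mock. In neutral, Dnah9 had a log2 fold change of 3.51 ± 1.75 against mock (edgeR quasi-likelihood test, Benjamini-Hochberg adjusted p = 0.429). Mock Dnah9 exceeded appetitive 153-fold, with a counting interval of 27.4 to 6054 (edgeR quasi-likelihood test, Benjamini-Hochberg adjusted p = 0.171). Dnah11 (a motor chain of the proximal outer arm, ENSMUSG00000018581, chr12:117877982-118199043) had CPM values of 1.79, 0.365 and 3.90 in mock 1 to 3, 0 and 36.7 in aversive 1 and 3, 0 and 0 in appetitive 1 and 2, and 42.8, 12.8 and 13.04 in neutral 1 to 3. For Dnah11, all 3 neutral libraries lay above every mock library, both appetitive libraries lay below every mock library, and the aversive libraries overlapped mock. In appetitive, Dnah11 lay at least 8.60-fold below the mock mean (edgeR quasi-likelihood test, Benjamini-Hochberg adjusted p = 0.180).

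Inner arm heavy chains, 6 members, all had a positive fitted change in neutral (relative median 1.48) and in aversive (relative median 1.54). In aversive 1, however, Dnah1, Dnah2, Dnah6, Dnah10 and Dnah12 were at 0, so their positive aversive changes came from aversive 3 alone. In appetitive 5 of 6 were negative (relative median -3.54 with bounds), and none was called. Dnah3 was the exception, with both appetitive libraries above every mock library. Dnah2 (an inner arm motor chain, ENSMUSG00000005237, chr11:69420809-69549110) had CPM values of 0.478, 1.15 and 5.76 in mock 1 to 3, 0 and 10.4 in aversive 1 and 3, 0.0782 and 0 in appetitive 1 and 2, and 85.2, 10.9 and 161 in neutral 1 to 3. For Dnah2, all 3 neutral libraries lay above every mock library, both appetitive libraries lay below every mock library, and the aversive libraries overlapped mock. In neutral, Dnah2 had a log2 fold change of 5.11 ± 2.00 against mock (edgeR quasi-likelihood test, Benjamini-Hochberg adjusted p = 0.280). Dnah6 (an inner arm motor chain, highest of its group by level per kb, ENSMUSG00000052861, chr6:73017606-73221651) had CPM values of 1.99, 7.45 and 12.6 in mock 1 to 3, 0 and 26.8 in aversive 1 and 3, 0 and 0.0524 in appetitive 1 and 2, and 184, 30.7 and 82.9 in neutral 1 to 3. For Dnah6, all 3 neutral libraries lay above every mock library, both appetitive libraries lay below every mock library, and the aversive libraries overlapped mock. Mock Dnah6 exceeded appetitive 302-fold, with a counting interval of 54.1 to 11947 (edgeR quasi-likelihood test, Benjamini-Hochberg adjusted p = 0.143). In aversive against mock, Dnah2 and Dnah6 had log2 fold changes of 1.07 and 0.86, which became -9.78 and -11.35 without aversive replicate 3, and -0.77 and -0.22 with the replicate block. Dnah1, Dnah10 and Dnah12 stayed uncalled by edgeR in every mock contrast.

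Both intermediate chains, Dnai1 and Dnai2, were higher by fit in neutral (relative median 1.97) and lower in appetitive (relative median -4.61 with bounds), neither called against mock. Dnai1 (a scaffold chain of the outer arm, ENSMUSG00000061322, chr4:41569775-41638158) had CPM values of 14.9, 9.64 and 12.1 in mock 1 to 3, 18.9 and 26.1 in aversive 1 and 3, 0 and 0.681 in appetitive 1 and 2, and 76.1, 34.8 and 59.9 in neutral 1 to 3. For Dnai1, all 3 neutral and both aversive libraries lay above every mock library, and both appetitive libraries lay below every mock library. In neutral, Dnai1 had a log2 fold change of 2.22 ± 1.15 against mock (edgeR quasi-likelihood test, Benjamini-Hochberg adjusted p = 0.459). In appetitive, Dnai1 had a log2 fold change of -5.12 ± 1.59 against mock (edgeR quasi-likelihood test, Benjamini-Hochberg adjusted p = 0.106). Assembly factors, 3 members, were positive by fit in neutral, relative median 3.16, and Zmynd10 was not called by edgeR in a mock contrast. By fit 2 of 3 were negative in aversive (relative median -0.76) and 2 of 3 in appetitive (relative median -2.19 with bounds), none called by edgeR.

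Dnaaf3 (a factor that preassembles dynein arms in the cytoplasm, ENSMUSG00000055809, chr7:4522933-4532453) had CPM values of 0.478, 0.990 and 4.42 in mock 1 to 3, 8.41 and 5.79 in aversive 1 and 3, 0.0782 and 5.50 in appetitive 1 and 2, and 47.7, 18.1 and 31.7 in neutral 1 to 3. For Dnaaf3, all 3 neutral and both aversive libraries lay above every mock library, and the appetitive libraries overlapped mock. In neutral, Dnaaf3 had a log2 fold change of 4.04 ± 1.56 against mock (edgeR quasi-likelihood test, Benjamini-Hochberg adjusted p = 0.274). Exons of Dnaaf3 are shared with Tnni3 on its strand, which makes its counts uncertain. Dnaaf1 (a preassembly factor, ENSMUSG00000031831, chr8:119575235-119598454) had CPM values of 0.836, 1.15 and 2.45 in mock 1 to 3, 0 and 0.0601 in aversive 1 and 3, 0 and 0 in appetitive 1 and 2, and 12.4, 0 and 13.2 in neutral 1 to 3. For Dnaaf1, both aversive and both appetitive libraries lay below every mock library, and the neutral libraries overlapped mock. Mock Dnaaf1 exceeded aversive 43.9-fold, with a counting interval of 14.8 to 215 (edgeR quasi-likelihood test, Benjamini-Hochberg adjusted p = 0.541).

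The axonemal ruler and nexin-dynein regulatory complex held 5 members. All 5 were positive by fit in neutral (relative median 2.27) and all 5 negative in appetitive (relative median -4.46 with bounds), with none called against mock and Ccdc39, Ccdc65 and Drc1 among them. Drc7 (a subunit of the regulatory complex, ENSMUSG00000031786, chr8:95055103-95078141) had CPM values of 8.64, 6.09 and 45.8 in mock 1 to 3, 32.9 and 0.220 in aversive 1 and 3, 0.0782 and 0 in appetitive 1 and 2, and 541, 87.9 and 287 in neutral 1 to 3. For Drc7, all 3 neutral libraries lay above every mock library, both appetitive libraries lay below every mock library, and the aversive libraries overlapped mock. In neutral, Drc7 had a log2 fold change of 3.92 ± 1.51 against mock (edgeR quasi-likelihood test, Benjamini-Hochberg adjusted p = 0.273). Mock Drc7 exceeded appetitive 996-fold, with a counting interval of 179 to 39348 (edgeR quasi-likelihood test, Benjamini-Hochberg adjusted p = 0.0798). Mock 3 held 3311 of the 3645 mock counts of Drc7 in that ratio. Ccdc40 (ruler partner of Ccdc39, ENSMUSG00000039963, chr11:119228572-119265238) had CPM values of 1.67, 2.66 and 16.98 in mock 1 to 3, 0 and 0.0802 in aversive 1 and 3, 0 and 0 in appetitive 1 and 2, and 0.773, 21.2 and 23.9 in neutral 1 to 3. For Ccdc40, both aversive and both appetitive libraries lay below every mock library, and the neutral libraries overlapped mock. In aversive, Ccdc40 had a log2 fold change of -7.22 ± 2.58 against mock (edgeR quasi-likelihood test, Benjamini-Hochberg adjusted p = 0.473).

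Tektins, filaments inside the doublets, were 3 members, all positive by fit in neutral (relative median 2.78) and negative in appetitive (relative median -4.05 with bounds). In the fit of all 4 groups and all libraries, Tekt2 and Tekt4 were not called by edgeR in any comparison. Tekt4 was called lower in appetitive against mock with only the 2 groups compared, and in some fits with 1 library left out. Tekt1 (a doublet filament protein, ENSMUSG00000020799, chr11:72344722-72362442) had CPM values of 6.85, 13.02 and 17.8 in mock 1 to 3, 20.4 and 35.9 in aversive 1 and 3, 0 and 0 in appetitive 1 and 2, and 211, 50.4 and 186 in neutral 1 to 3. For Tekt1, all 3 neutral and both aversive libraries lay above every mock library, and both appetitive libraries lay below every mock library. In neutral, Tekt1 had a log2 fold change of 3.57 ± 0.91 against mock (edgeR quasi-likelihood test, Benjamini-Hochberg adjusted p = 0.174). In appetitive, Tekt1 lay at least 53.6-fold below the mock mean (edgeR quasi-likelihood test, Benjamini-Hochberg adjusted p = 0.0317). The Tekt1 call ended without mock replicate 1 (0.0789), mock replicate 2 (0.0802), mock replicate 3 (0.0937), neutral replicate 1 (0.0593), neutral replicate 2 (0.0570) or neutral replicate 3 (0.0908), adjusted p in parentheses.

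Other Cfap proteins were 8 members. All 8 were positive by fit in neutral (relative median 2.76), 6 of 8 negative in appetitive (relative median -4.20 with bounds), and 5 of 8 were at 0 in both appetitive libraries. Cfap43, Cfap52, Cfap53, Cfap65 and Cfap70 were not called by edgeR in a mock contrast. Cfap44 (a tether of inner dynein arms, ENSMUSG00000071550, chr16:44394796-44482428) had CPM values of 0.319, 2.40 and 13.03 in mock 1 to 3, 10.2 and 8.02 in aversive 1 and 3, 0 and 0 in appetitive 1 and 2, and 278, 87.7 and 134 in neutral 1 to 3. For Cfap44, all 3 neutral libraries lay above every mock library, both appetitive libraries lay below every mock library, and the aversive libraries overlapped mock. In neutral, Cfap44 had a log2 fold change of 4.98 ± 1.33 against mock (edgeR quasi-likelihood test, Benjamini-Hochberg adjusted p = 0.174). In appetitive, Cfap44 lay at least 22.4-fold below the mock mean (edgeR quasi-likelihood test, Benjamini-Hochberg adjusted p = 0.0618). Mock 1, at 0.319 CPM, stood near the highest appetitive floor of 0.235 CPM. Cfap126 (flattop, a basal body positioning protein, ENSMUSG00000026649, chr1:171113918-171126967) had CPM values of 2.55, 3.80 and 11.04 in mock 1 to 3, 21.8 and 12.6 in aversive 1 and 3, 0 and 18.1 in appetitive 1 and 2, and 188, 39.6 and 128 in neutral 1 to 3. For Cfap126, all 3 neutral and both aversive libraries lay above every mock library, and the appetitive libraries overlapped mock. In neutral, Cfap126 had a log2 fold change of 4.35 ± 1.64 against mock (edgeR quasi-likelihood test, Benjamini-Hochberg adjusted p = 0.261).

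Cfap206 (a protein of the radial spoke base, ENSMUSG00000028294, chr4:34688559-34730206) had CPM values of 0.677, 9.32 and 15.6 in mock 1 to 3, 90.3 and 11.8 in aversive 1 and 3, 0 and 0 in appetitive 1 and 2, and 47.8, 16.2 and 35.2 in neutral 1 to 3. For Cfap206, all 3 neutral libraries lay above every mock library, both appetitive libraries lay below every mock library, and the aversive libraries overlapped mock. In aversive, Cfap206 had a log2 fold change of 2.58 ± 1.40 against mock (edgeR quasi-likelihood test, Benjamini-Hochberg adjusted p = 0.528). Leaving out 1 library at a time, that log2 fold change ranged from 0.41 to 3.39. In appetitive, Cfap206 lay at least 36.3-fold below the mock mean (edgeR quasi-likelihood test, Benjamini-Hochberg adjusted p = 0.0637). Mock 1, at 0.677 CPM, lay closer to the highest appetitive floor of 0.235 CPM. The highest library for Cfap206 was aversive 1, where 19 other members were at 0.

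The 3 regulators were all positive by fit in neutral (relative median 2.27), and 2 of 3 were negative in appetitive (relative median -0.96 with bounds). In the mock contrasts none was called by edgeR or DESeq2 or was at an unadjusted p under 0.05 in edgeR, while DESeq2 called Rfx2 lower in appetitive against neutral and against aversive. Foxj1 (the forkhead factor of motile ciliogenesis, ENSMUSG00000034227, chr11:116330704-116335399) had CPM values of 1.91, 1.93 and 28.2 in mock 1 to 3, 6.06 and 7.58 in aversive 1 and 3, 0 and 7.96 in appetitive 1 and 2, and 95.1, 24.4 and 43.5 in neutral 1 to 3. For Foxj1, the neutral, aversive and appetitive libraries overlapped mock. In neutral, Foxj1 had a log2 fold change of 2.34 ± 1.67 against mock (edgeR quasi-likelihood test, Benjamini-Hochberg adjusted p = 0.661). Leaving out 1 library at a time, that log2 fold change ranged from 1.65 to 4.80. Rfx2 (an X-box binding factor, ENSMUSG00000024206, chr17:56775897-56831013) had CPM values of 3.46, 0.521 and 9.44 in mock 1 to 3, 0 and 27.2 in aversive 1 and 3, 0.235 and 0 in appetitive 1 and 2, and 41.96, 18.7 and 26.2 in neutral 1 to 3. For Rfx2, all 3 neutral libraries lay above every mock library, both appetitive libraries lay below every mock library, and the aversive libraries overlapped mock. Mock Rfx2 exceeded appetitive 71.04-fold, with a counting interval of 24.2 to 345 (edgeR quasi-likelihood test, Benjamini-Hochberg adjusted p = 0.245).

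Rfx3 (an X-box binding factor, ENSMUSG00000040929, chr19:27761721-28011166) had CPM values of 17.4, 8.02 and 24.1 in mock 1 to 3, 2.70 and 68.1 in aversive 1 and 3, 68.2 and 0.0524 in appetitive 1 and 2, and 40.2, 8.14 and 31.04 in neutral 1 to 3. For Rfx3, the neutral, aversive and appetitive libraries overlapped mock. In neutral, Rfx3 had a log2 fold change of 0.68 ± 1.64 against mock (edgeR quasi-likelihood test, Benjamini-Hochberg adjusted p = 0.946). In appetitive, Rfx3 had a log2 fold change of 1.05 ± 1.81 against mock (edgeR quasi-likelihood test, Benjamini-Hochberg adjusted p = 0.732). Its values in appetitive 1 and 2 lay at opposite ends of the 10 libraries.

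Counting ignored strand, and 18 of 42 members share exon sequence with another gene, 17 of them with a gene on the other strand and 8 with a protein-coding gene. These are Hydin, Spag17, Dnah9, Dnah11, Dnah1, Dnah2, Dnah3, Dnah6, Dnah10, Dnai1, Dnaaf1, Dnaaf3, Zmynd10, Ccdc39, Tekt2, Cfap43, Cfap52 and Cfap65, and their values are uncertain to that extent. The 4 members that fell in appetitive are not among them.

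Comparisons among tagged groups are given as description, because the members were chosen from them. In aversive against neutral, 32 of 42 members had a negative fitted change, against 52.65% of all genes (relative median -2.03). EdgeR called 0 of 42 and 0% of all genes lower, with 8 members lower at an unadjusted p under 0.05 (19.05%), beside 10.78% of all genes, and 6 of 40 called lower by DESeq2, beside 9.453%. The 8 became 1 without neutral replicate 1 (9.968% of all genes lower), 2 without neutral replicate 3 (9.093%), 3 without aversive replicate 1 (7.508%), 19 without aversive replicate 3 (11.87%), 5 without mock replicate 1, 2 or 3, 12 without appetitive replicate 1 or 2 and 9 without neutral replicate 2. Without aversive replicate 3 the median went from -2.18 to -8.77, beside -1.19 for all genes. The 3 members with the largest fitted change were Ccdc40, Dnaaf1 and Rsph4a. In appetitive against neutral, 40 of 42 were negative, against 59.03% (relative median with bounds -6.25), and edgeR called 12 lower, beside 5.229% of all genes. The largest fitted changes were those of Rsph1, Tekt1 and Cfap44, at least 757, 635 and 710.1-fold below the neutral mean. The 12 became 26 without aversive replicate 1 or 3, 6 without mock replicate 1, 5 without mock replicate 2 or 3 or neutral replicate 1, 7 without appetitive replicate 1 and 3 without neutral replicate 3. In this order all genes called lower were 9.693%, 10.49%, 1.037%, 1.049%, 1.284%, 1.887%, 3.902% and 0.299%. With the replicate block 3 members and 0.3088% of all genes were called lower, and with only the 2 groups compared no gene at all.

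In appetitive against aversive, 41 of 42 were negative, against 56.79% of all genes (relative median with bounds -5.25). Without aversive replicate 3, however, the median of the members was 0.00, as was that of all genes, aversive 1 having 19 members at 0. EdgeR called 5 lower, beside 1.686% of all genes. Those were Rsph1, Rsph9, Tekt1, Spef2 and Cfap206. The largest fitted changes were in Rsph1, Tekt1 and Cfap206, at least 343, 119.9 and 218-fold below the aversive mean. The 5 became 0 with the replicate block, 0 with only the 2 groups compared (19 members tested), and 0 without mock replicate 1, 2 or 3 or neutral replicate 1 or 3, in all of which no gene at all was called, 13 without aversive replicate 1 (3.744% of all genes lower), and 3 without appetitive replicate 1 (2.689%) or neutral replicate 2 (0.4243%).

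Beyond the members, 85 other motile cilia genes were matched and 81 tested. In neutral against mock 71 of 81 were positive by fit, against 51.85% of all genes (relative median 2.00), the edgeR quasi-likelihood test called 0, 14 were higher at an unadjusted p under 0.05 (17.3%, beside 3.721% of all genes) and DESeq2 called 8 higher (10.1%, beside 1.729%). In aversive 40 were positive and 41 negative by fit (relative median 0.10, beside 1.26 for the members). Of the 81, 7 lay above (8.64%, beside 11.36% of all genes) and 17 below every mock library (20.99%, beside 24.72%). EdgeR called 0 in aversive, with 1 higher (1.23%, beside 1.012%) and 7 lower (8.64%, beside 8.95%) at an unadjusted p under 0.05, and DESeq2 called 6 lower (7.59%, beside 7.307%). In appetitive 66 of 81 were negative, against 63.99% (relative median with bounds -2.46), 42 were lower (51.9%, beside 20.98%) and 1 higher at an unadjusted p under 0.05, DESeq2 called 44 lower (56.4%, beside 23.13%) and 1 higher, and 3 fell by edgeR (3.70%, beside 1.959%). Of these Cfap69 (a central pair protein) had CPM values of 2.71, 4.58 and 13.4 in mock 1 to 3, 34.3 and 24.2 in aversive 1 and 3, 0 and 0 in appetitive 1 and 2, and 105, 17.3 and 52.1 in neutral 1 to 3. For Cfap69, all 3 neutral and both aversive libraries lay above every mock library, and both appetitive libraries lay below every mock library. It was at least 29.4-fold below the mock mean in appetitive (edgeR quasi-likelihood test, Benjamini-Hochberg adjusted p = 0.0420). The Cfap69 call ended without mock replicate 1 (0.0910), mock replicate 2 (0.0940), mock replicate 3 (0.111), appetitive replicate 1 (0.0593), neutral replicate 1 (0.0766), neutral replicate 2 (0.0669) or neutral replicate 3 (0.106), adjusted p in parentheses. Ccdc113 (a cilium assembly protein) had CPM values of 2.95, 7.97 and 10.5 in mock 1 to 3, 28.97 and 6.15 in aversive 1 and 3, 0 and 0 in appetitive 1 and 2, and 125, 21.7 and 83.2 in neutral 1 to 3. For Ccdc113, all 3 neutral libraries lay above every mock library, both appetitive libraries lay below every mock library, and the aversive libraries overlapped mock. It was at least 30.4-fold below the mock mean in appetitive (edgeR quasi-likelihood test, Benjamini-Hochberg adjusted p = 0.0430). The Ccdc113 call ended without mock replicate 1 (0.0912), mock replicate 2 (0.104), mock replicate 3 (0.115), appetitive replicate 1 (0.0636), appetitive replicate 2 (0.0515), neutral replicate 1 (0.0773), neutral replicate 2 (0.0669) or neutral replicate 3 (0.108), adjusted p in parentheses. The third, Stk36 (a kinase of central pair assembly), is named outside the fixed rule, after its values were seen, with CPM values of 5.18, 2.50 and 7.57 in mock 1 to 3, 4.50 and 3.51 in aversive 1 and 3, 0 and 0 in appetitive 1 and 2, and 61.9, 15.97 and 33.1 in neutral 1 to 3. It was at least 21.7-fold below the mock mean in appetitive (edgeR quasi-likelihood test, Benjamini-Hochberg adjusted p = 0.0454). The Stk36 call ended without mock replicate 1 (0.110), mock replicate 2 (0.104), mock replicate 3 (0.125), appetitive replicate 1 (0.0579), neutral replicate 1 (0.0860), neutral replicate 2 (0.0739) or neutral replicate 3 (0.115), adjusted p in parentheses. Tppp3 (a tubulin binding protein) was the most abundant by mean CPM over all libraries, with CPM values of 209.6, 226 and 145 in mock 1 to 3, 309 and 275 in aversive 1 and 3, 496 and 934 in appetitive 1 and 2, and 63.2, 193 and 102 in neutral 1 to 3.

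Of primary cilium transport genes 54 were matched and 53 tested. Their relative median with bounds was 1.10 in neutral, 0.36 in aversive and -1.33 in appetitive, each against mock, beside 2.47, 1.16 and -4.03 for the members. In neutral edgeR called 0, with 2 higher (3.77%, beside 3.721% of all genes) and 1 lower at an unadjusted p under 0.05, and DESeq2 called 2 higher and 1 lower. In aversive edgeR called 0, with 4 lower at an unadjusted p under 0.05 (7.55%, beside 8.95%) and 4 called lower by DESeq2 (7.69%, beside 7.307%). In appetitive edgeR called 1 lower (1.89%, beside 1.959% of all genes), with 21 lower (39.6%, beside 20.98%) and 2 higher at an unadjusted p under 0.05, and DESeq2 called 21 lower (40.4%, beside 23.13%) and 2 higher. The 1 gene called, Ift172 (a transport train subunit), had CPM values of 16.7, 6.61 and 44.9 in mock 1 to 3, 40.2 and 65.2 in aversive 1 and 3, 0 and 0 in appetitive 1 and 2, and 30.4, 41.1 and 40.97 in neutral 1 to 3. Both appetitive libraries were at 0, at least 96.9-fold below the mock mean (edgeR quasi-likelihood test, Benjamini-Hochberg adjusted p = 0.0317). The Ift172 call ended without mock replicate 1 (0.0853), mock replicate 2 (0.0802), mock replicate 3 (0.0937), neutral replicate 1 (0.0594), neutral replicate 2 (0.0644) or neutral replicate 3 (0.0908), adjusted p in parentheses. Ift20 (another subunit) was the most abundant by mean CPM over all libraries, with CPM values of 56.98, 80.1 and 39.5 in mock 1 to 3, 179 and 139 in aversive 1 and 3, 272 and 70.03 in appetitive 1 and 2, and 158, 119 and 128 in neutral 1 to 3.

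To describe sequence that members share, promoter windows of 300 bases around the gene start (RefSeq, GRCm38.p6) were searched on both strands. Of 42 members 34 had windows, 39 in all, and Rsph1, Rsph4a, Cfap54, Dnah3, Dnaaf1, Cfap53, Cfap65 and Foxj1 had no entry. The X-box, the degenerate site of RFX factors, stood in windows of 7 of 34 members (20.6%) and of 1.75% of all 27025 genes with windows. It had 1 site in each, which for Tekt2 lies in 2 overlapping windows. Its half-site GTTGCC, which overlaps many X-boxes, stood in 14 (41.2%) against 14.1%. The forkhead core TGTTTAC stood in 1, Cfap43 (2.94%), against 4.05%. No test was run on these shares. Members with an X-box were Dnai1, Spag16, Cfap44, Spef2, Dnai2, Hydin and Tekt2. The first 4 by level per kb are printed to show where the box lies, 5′ to 3′ on the gene's strand, with the X-box in capitals. The windows are chr4:41569544-41569843 (+ strand) for Dnai1, chr1:69826720-69827019 (+ strand) for Spag16, chr16:44394549-44394848 (+ strand) for Cfap44, chr15:9748819-9749118 (- strand) for Spef2.
Dnai1: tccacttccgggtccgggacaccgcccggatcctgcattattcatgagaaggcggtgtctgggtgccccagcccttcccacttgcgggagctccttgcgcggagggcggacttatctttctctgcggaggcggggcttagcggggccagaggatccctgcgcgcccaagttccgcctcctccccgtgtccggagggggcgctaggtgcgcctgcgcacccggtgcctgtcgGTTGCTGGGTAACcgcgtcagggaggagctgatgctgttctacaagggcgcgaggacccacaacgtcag
Spag16: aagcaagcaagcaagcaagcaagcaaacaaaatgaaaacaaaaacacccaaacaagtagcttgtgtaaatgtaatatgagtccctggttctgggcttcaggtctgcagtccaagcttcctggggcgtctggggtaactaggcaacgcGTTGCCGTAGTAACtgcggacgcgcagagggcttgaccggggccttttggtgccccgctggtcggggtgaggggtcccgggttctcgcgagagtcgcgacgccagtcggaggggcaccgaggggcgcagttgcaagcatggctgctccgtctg
Cfap44: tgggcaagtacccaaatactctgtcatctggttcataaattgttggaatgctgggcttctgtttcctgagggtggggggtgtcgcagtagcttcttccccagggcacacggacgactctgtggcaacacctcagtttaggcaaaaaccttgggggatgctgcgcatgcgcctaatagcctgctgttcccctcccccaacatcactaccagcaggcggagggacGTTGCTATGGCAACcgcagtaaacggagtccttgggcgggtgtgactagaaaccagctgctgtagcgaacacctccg
Spef2: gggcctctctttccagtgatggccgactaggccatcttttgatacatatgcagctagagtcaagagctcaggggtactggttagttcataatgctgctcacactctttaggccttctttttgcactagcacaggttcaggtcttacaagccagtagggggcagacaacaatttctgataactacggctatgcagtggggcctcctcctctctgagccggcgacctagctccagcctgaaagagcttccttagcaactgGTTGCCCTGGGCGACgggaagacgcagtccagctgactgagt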

How the data were processed

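RNA-seq of sorted hippocampal material was taken from 10 libraries (3 mock, 2 aversive, 2 appetitive, 3 neutral). The authors mapped the first 40 bases per read with STAR and deposited unnormalized counts per Ensembl gene from featureCounts, whose versions are not given. Totals ran from 16968588 to 67650693 counts. CPM use totals times TMM factors, so 3 counts, taken as the floor, equal at most 0.235 CPM (appetitive 1, factor 0.480). Groups and numbers came from the labels. Of 53379 identifiers 53274 were matched to GENCODE M21.

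In R 4.3.3, edgeR 4.0.16 scaled libraries by TMM, kept genes by filterByExpr, and fitted 1 quasi-likelihood model with 4 groups. The code was tested on simulated counts. P-values were adjusted by Benjamini-Hochberg over all tested genes and called under 0.05. Standard errors derive from the F statistics. For a group at 0 the bound is the mean CPM of the other group over the highest floor of the group at 0. For a group with 1 to 3 counts the ratio is of pooled rates (summed counts over summed scaled library sizes), with an exact binomial interval of 95%. Named members are, per structural group, the highest by level per kb and the smallest p in neutral against mock, the 3 regulators, members called against mock, and the 3 largest fitted changes of each comparison among tagged groups. Members and lists were chosen with earlier results of these data known. Alternatives were DESeq2 1.42.0, other scaling, other filters, a fit of the groups compared, a replicate block, and leaving out each library. Tables and figures used Python 3.11.15, pandas 2.3.3 and numpy 2.4.6. Reads were not reanalysed.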

Additional observations from a re-analysis of the deposited data

Results flagged for a closer look

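For 3 members both aversive libraries lay above every mock library while both appetitive libraries lay below every mock library. The difference between the 2 effects is the comparison of appetitive with aversive. The members were chosen with that comparison in view, so its results are given as description. Rsph9 and Tekt1 were called lower there (edgeR quasi-likelihood test, Benjamini-Hochberg adjusted p = 0.0240 and 0.0253) and Dnai1 was not (0.104). Both calls ended with the replicate block and with only the 2 groups compared. They also ended without mock replicate 1, 2 or 3 or neutral replicate 1 or 3. Rsph9 read 29.02 and 62.5 CPM in aversive 1 and 3 and 0 and 0.0524 in appetitive 1 and 2, beside 20.6, 23.02 and 22.8 in mock. Dnai1 read 18.9 and 26.1 CPM in aversive 1 and 3 and 0 and 0.681 in appetitive 1 and 2, beside 14.9, 9.64 and 12.1 in mock. Tekt1 read 20.4 and 35.9 CPM in aversive 1 and 3 and 0 and 0 in appetitive 1 and 2, beside 6.85, 13.02 and 17.8 in mock. Among all tested genes 487 of 19754 (2.47%) were placed in this way, and among members 3 of 42 (7.14%).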

How the results depend on the processing

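Members called, and in parentheses the percent of all tested genes called, are given in the order neutral, aversive and appetitive against mock, then aversive against neutral, appetitive against neutral and appetitive against aversive. As reported they were 0 (0.08606), 0 (0), 4 (1.979), 0 (0.0405), 12 (6.166), 5 (1.802). With DESeq2 they were 6 (7.142), 1 (7.825), 26 (26.32), 6 (16.12), 31 (28.67), 26 (23.78), with no filter 2 (1.475), 0 (0.02836), 15 (3.187), 1 (2.447), 26 (7.188), 16 (3.601), and with only the 2 groups compared 0 (0), 0 (0), 17 (21.77), 0 (0), 0 (0), 0 (0) (members tested 42, 42, 39, 42, 40 and 19). With at least 10 counts in every library only Dnah3 was left, and none was called. Library size alone gave 0 (0.0405), 0 (0), 4 (1.974), 0 (0.03544), 12 (6.085), 4 (1.428) and DESeq2 size factors 0 (0.09112), 0 (0), 3 (1.316), 0 (0.0405), 12 (5.867), 5 (1.529). Median log2 fold changes, with those of all tested genes in parentheses, were 2.54 (0.08), 1.13 (-0.13), -8.77 (-1.45), -2.18 (-0.15), -11.19 (-0.91), -7.98 (-0.48) as reported. With at least 10 counts in every library they were 0.71 (0.11), 1.30 (0.13), 1.03 (0.20), 0.59 (-0.02), 0.32 (0.04), -0.27 (-0.00), for that 1 member, and with only the 2 groups compared 2.38 (-0.01), 1.32 (0.09), -8.38 (-0.84), -1.95 (-0.03), -11.50 (-0.96), -4.61 (-0.10). With a replicate block the members called were 0 (0), 0 (0), 0 (0), 0 (0), 3 (0.3695), 0 (0) and the medians 3.40 (-0.17), 0.25 (-0.51), -7.03 (-1.83), -3.15 (-0.35), -10.53 (-1.14), -5.66 (-0.66). Correlations of same-numbered libraries ran from -0.06 to 0.19, and those of differently numbered ones from -0.16 to 0.15. A group of 2 libraries gives 2 correlations equal in size and opposite in sign. These correlations therefore cannot decide whether equal numbers mark a shared batch. Leaving out 1 library at a time, members called ranged from 0 to 0 in neutral vs mock, from 0 to 0 in aversive vs mock, from 0 to 18 in appetitive vs mock, from 0 to 0 in aversive vs neutral, from 3 to 26 in appetitive vs neutral, from 0 to 13 in appetitive vs aversive. Medians ranged from 2.15 to 3.86 in neutral vs mock, from -5.93 to 1.96 in aversive vs mock, from -10.37 to -6.65 in appetitive vs mock, from -8.77 to -1.34 in aversive vs neutral, from -12.85 to -10.77 in appetitive vs neutral, from -11.28 to 0.00 in appetitive vs aversive. Relative medians ranged from 2.19 to 3.58 in neutral vs mock, from -4.08 to 2.11 in aversive vs mock, from -7.74 to -5.60 in appetitive vs mock, from -7.57 to -1.08 in aversive vs neutral, from -10.45 to -9.43 in appetitive vs neutral, from -9.04 to 0.00 in appetitive vs aversive. A group left with 1 library was assumed to vary like the others. The median number of members detected per library was 41.0 (as reported, at least 1 count), 36.0 (at least 10 counts), 40.5 (thinned to the smallest total). Named members whose log2 fold change against mock took the other sign under some alternative were Spef2 (aversive vs mock) 0.75 as reported, from -1.93 to 1.56 leaving out 1 library, Dnah9 (aversive vs mock) 0.23 as reported, -0.73 with the replicate block and from -3.10 to 2.05 leaving out 1 library, Dnah11 (aversive vs mock) 3.18 as reported, from -9.49 to 4.13 leaving out 1 library, Dnah2 (aversive vs mock) 1.07 as reported, -0.77 with the replicate block and from -9.78 to 2.73 leaving out 1 library, Dnah6 (aversive vs mock) 0.86 as reported, -0.22 with the replicate block and from -11.35 to 1.80 leaving out 1 library, Dnaaf3 (appetitive vs mock) 0.50 as reported, from -4.77 to 1.94 leaving out 1 library, Drc7 (aversive vs mock) -0.29 as reported, from -6.56 to 1.17 leaving out 1 library, Cfap126 (appetitive vs mock) 0.64 as reported, from -11.17 to 1.53 leaving out 1 library, Foxj1 (aversive vs mock) -0.65 as reported, from -1.12 to 1.85 leaving out 1 library, Foxj1 (appetitive vs mock) -1.42 as reported, from -12.03 to 1.07 leaving out 1 library, Rfx2 (aversive vs mock) 1.60 as reported, from -10.64 to 2.82 leaving out 1 library, Rfx3 (aversive vs mock) 1.10 as reported, -0.19 with the replicate block and from -2.62 to 1.95 leaving out 1 library, Rfx3 (appetitive vs mock) 1.05 as reported, -0.22 with library size alone and from -8.43 to 1.85 leaving out 1 library. Over all named members and alternatives 916 values kept direction and side of the threshold, 39 passed it anew, 31 no longer passed it and 22 changed sign.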

Other observations

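Markers of astrocytes (8 of 8 matched) summed to CPM of 15738, 6624 and 5312 in mock 1 to 3, 5716 and 7310.1 in aversive 1 and 3, 4963 and 3331 in appetitive 1 and 2, and 166, 513 and 384 in neutral 1 to 3, with Aldoc (a glycolytic enzyme) the most abundant. Markers of oligodendrocytes (8 of 8 matched) summed to CPM of 365642, 294207 and 50179.8 in mock 1 to 3, 410184 and 25220.3 in aversive 1 and 3, 803215 and 83288 in appetitive 1 and 2, and 23932, 35472 and 7445 in neutral 1 to 3, with Mbp (myelin) the most abundant. Markers of microglia (9 of 9 matched) summed to CPM of 1660.0, 2430.3 and 10284 in mock 1 to 3, 7133 and 2607 in aversive 1 and 3, 3981 and 1068 in appetitive 1 and 2, and 41.96, 424 and 298 in neutral 1 to 3, with C1qb (complement) the most abundant. Markers of endothelial cells (8 of 8 matched) summed to CPM of 715, 3732 and 2022 in mock 1 to 3, 1253 and 1094 in aversive 1 and 3, 1532 and 216 in appetitive 1 and 2, and 118, 3228 and 1604 in neutral 1 to 3, with Slco1a4 (an anion carrier) the most abundant. Markers of meningeal and fibroblast cells (8 of 8 matched) summed to CPM of 70.2, 61.9 and 68.3 in mock 1 to 3, 127 and 123 in aversive 1 and 3, 3.75 and 7.02 in appetitive 1 and 2, and 138, 106 and 109 in neutral 1 to 3, with Dcn (a matrix proteoglycan) the most abundant by mean CPM over all libraries. Dcn itself had 0, 13 and 0 counts in neutral 1 to 3. There Igf2 had 7581, 931 and 5241 counts and Col1a2 642, 5645 and 2151. Igf2 and Col1a2 were singled out after their values were seen. The most abundant genes named for the other lists here are by the same mean.

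By the edgeR quasi-likelihood test with Benjamini-Hochberg adjustment 3 of 8 astrocyte markers fell in neutral against mock, while 0.081% of all tested genes did. Slc1a2 (a glutamate carrier) had CPM values of 1395, 525 and 577 in mock 1 to 3, 1167 and 2105 in aversive 1 and 3, 765 and 803 in appetitive 1 and 2, and 2.71, 6.31 and 17.9 in neutral 1 to 3, log2 fold change -6.53 ± 0.89, adjusted p = 0.0482. The Slc1a2 call ended without mock replicate 1 (0.155), mock replicate 2 (0.129), mock replicate 3 (0.152), aversive replicate 1 (0.0804), aversive replicate 3 (0.0837), neutral replicate 1 (0.179), neutral replicate 2 (0.0744) or neutral replicate 3 (0.0835), adjusted p in parentheses. Aldoc had CPM values of 5349, 2833 and 1279 in mock 1 to 3, 1678 and 1493 in aversive 1 and 3, 2235 and 860.3 in appetitive 1 and 2, and 114, 141 and 136 in neutral 1 to 3, log2 fold change -4.60 ± 0.67, adjusted p = 0.0482. The Aldoc call ended without mock replicate 1 (0.155), mock replicate 2 (0.143), mock replicate 3 (0.152), aversive replicate 1 (0.0804), aversive replicate 3 (0.0964), neutral replicate 1 (0.213), neutral replicate 2 (0.0819) or neutral replicate 3 (0.208), adjusted p in parentheses. The third, Slc1a3 (another glutamate carrier), is named outside the fixed rule, after its values were seen, with CPM values of 4024, 1292 and 1491 in mock 1 to 3, 1190.2 and 2097 in aversive 1 and 3, 448 and 979 in appetitive 1 and 2, and 18.1, 88.96 and 41.5 in neutral 1 to 3, log2 fold change -5.52 ± 0.83, adjusted p = 0.0482. The Slc1a3 call ended without mock replicate 1 (0.172), mock replicate 2 (0.129), mock replicate 3 (0.155), aversive replicate 1 (0.0893), aversive replicate 3 (0.0964), neutral replicate 1 (0.179) or neutral replicate 3 (0.239), adjusted p in parentheses. The endothelial gene Tek (a receptor kinase) fell in appetitive, 1 of 8 markers against 1.959% of all tested genes, with CPM values of 60.6, 223 and 182 in mock 1 to 3, 104 and 221 in aversive 1 and 3, 0.235 and 0.576 in appetitive 1 and 2, and 4.59, 135 and 117 in neutral 1 to 3, log2 fold change -8.55 ± 1.70, adjusted p = 0.0363 by the same test. The Tek call ended without mock replicate 1 (0.0853), mock replicate 2 (0.0869), mock replicate 3 (0.109), appetitive replicate 1 (0.0884), appetitive replicate 2 (0.0506), neutral replicate 1 (0.0593), neutral replicate 2 (0.0658) or neutral replicate 3 (0.0908), adjusted p in parentheses. With the replicate block no gene at all was called in neutral or appetitive against mock. Which cells carried the members in each library was not tested. Markers at an unadjusted p under 0.05 in edgeR, higher and lower, with DESeq2 calls in parentheses, were in neutral against mock astrocytes 0 and 8 (0 and 6), oligodendrocytes 0 and 3 (0 and 1), microglia 0 and 7 (0 and 7), endothelial cells 0 and 0 (0 and 0), meningeal and fibroblast cells 1 and 2 (1 and 2), in aversive astrocytes 0 and 0 (0 and 0), oligodendrocytes 0 and 0 (0 and 0), microglia 0 and 0 (0 and 0), endothelial cells 0 and 0 (0 and 0), meningeal and fibroblast cells 0 and 1 (0 and 1), and in appetitive astrocytes 0 and 0 (0 and 0), oligodendrocytes 2 and 0 (0 and 0), microglia 0 and 0 (0 and 0), endothelial cells 0 and 2 (0 and 2), meningeal and fibroblast cells 0 and 4 (0 and 4). Over all tested genes the shares at an unadjusted p under 0.05 were 3.721% and 9.735% (DESeq2 1.729% and 5.413%) in neutral, 1.012% and 8.95% (0.518% and 7.307%) in aversive, and 2.794% and 20.98% (3.193% and 23.13%) in appetitive. DESeq2 gave an adjusted p to 3 of 8 oligodendrocyte markers, 8 of 9 microglia markers and all of the others.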
